A study of Homo sapiens with 3 samples.

Results

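The 10 genes described here encode enzymes that make androgens or convert them into each other: CYP11A1, HSD3B1, STS, HSD17B4, HSD17B11, SRD5A1, SRD5A3, AKR1C1, AKR1C2 and AKR1C3. They were selected by gene name, but the list was drawn up with earlier results of these data known, so it was not blind to them. All 10 were found among the 58735 genes of the deposited tables. RNA sequencing was carried out on 3 established human prostate cancer lines, with 1 library for each line. LNCAP, derived from a lymph node metastasis and known to respond to androgen, was assigned to ADPC (androgen-dependent prostate cancer). PC3 and DU145, derived from metastases to bone and to brain, were assigned to CRPC (castration-resistant prostate cancer, which progresses under androgen deprivation). All 3 lines were grown at 37 °C with 5% CO2 and 10% serum, and no drug or hormone treatment is named. Several media are listed without being assigned to lines, so the medium may differ between lines and cannot be told apart from the line. For each library 4 ug of total RNA was taken. With 1 library per line there is no replicate check, so a difference below is a difference between libraries, and culture and line cannot be told apart.

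Androgens are built from cholesterol. The side chain is first removed in the mitochondrion, the product is oxidised and cleaved to the adrenal precursors that circulate in blood, and tissues such as the prostate convert these precursors to testosterone and then to dihydrotestosterone, the most potent natural androgen. Further reductases and dehydrogenases inactivate dihydrotestosterone or restore it, so the same enzyme families carry out both supply and removal. Prostate tumours under androgen deprivation are known for making use of adrenal precursors in this way.

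Library totals were close, from 15319045 to 15878546 counts, and normalised CPM below is the count of a gene relative to the TMM-scaled size of its library. The labelled tissue was checked against markers of prostate luminal cells. All 8 luminal markers reached 1 CPM in LNCAP, 3 of 8 did in PC3 and 1 of 8 in DU145, where 6 of 8 were at 0. The summed luminal level was 5822 CPM in LNCAP, with 398 CPM in PC3 and 18.4 CPM in DU145. In PC3, 387 CPM of the sum came from HOXB13, a homeobox gene of the prostate, which was at 329 CPM in LNCAP, and the other 7 markers were far lower than in LNCAP. Luminal markers other than HOXB13 thus moved with the differences between LNCAP and the other lines below, and in DU145 HOXB13 did as well, at 0. Their part in these differences was not tested. All 4 epithelial markers reached 1 CPM in each library, with sums of 1523 CPM in LNCAP, 457 CPM in PC3 and, in DU145, 1754 CPM. They too moved with the differences of PC3 from the other lines: CDH1, which encodes E-cadherin, was at 786 CPM in LNCAP and 145 CPM in DU145, and at 2.22 CPM in PC3. Their part in those differences was not tested either. Markers of steroid-producing glands summed to between 0.639 and 2.03 CPM over 6 genes, with NR5A1, the transcription factor that defines such glands, at 2, 0 and 2 counts in LNCAP, PC3 and DU145. Liver markers summed to 6.33 CPM in LNCAP, but 1.05 CPM in PC3 and 59.6 CPM in DU145, nearly all of the last from SERPINA1, with 932 counts in DU145. Markers of stroma, endothelium and blood summed to 9.72 CPM in LNCAP, against 20.6 CPM in PC3 and 1.09 CPM in DU145. Most of the sum in LNCAP was VWF, at 9.21 CPM, and most in PC3 was PECAM1, at 20.1 CPM, both genes of endothelium, with VWF near 0 in PC3 and PECAM1 at 0 in LNCAP.

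Lines were compared in pairs, by the ratio of their scaled counts and its exact 95% interval. A gene was called apart when it differed at least 4-fold, on the log2 scale with 0.5 counts added, and the interval excluded a ratio of 1. The reads carry no molecular identifiers and so do not count independent molecules. Counting error is all that the intervals, and the limits for a count of 0, take into account. All 10 genes passed the filter of 1 CPM in at least 1 library, which 18025 genes passed. HSD3B1 and CYP11A1 passed it through LNCAP alone and therefore had to differ.

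**Figure D1:**
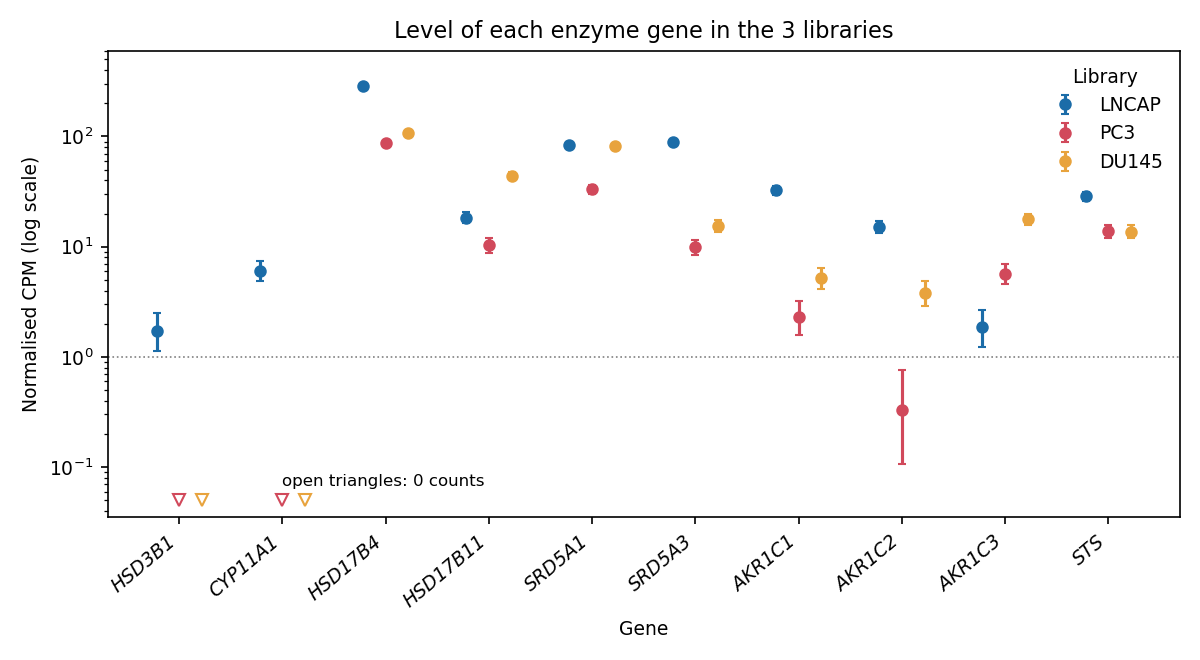
Normalised CPM on a log scale for each of the 10 enzyme genes (x axis) in LNCAP, PC3 and DU145, 1 library each, with exact 95% counting intervals as bars. Open triangles mark libraries with 0 counts, and the dotted line is 1 CPM. LNCAP is the highest library for 8 of the genes, for SRD5A1 by only 1.03-fold over DU145, and DU145 is the highest for HSD17B11 and AKR1C3. HSD3B1 and CYP11A1 passed the filter through LNCAP alone, and the share of all genes highest in LNCAP was not computed.

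The genes for the steps from cholesterol, CYP11A1 and HSD3B1, had counts in LNCAP and none in the castration-resistant lines. CYP11A1 encodes the side-chain cleavage enzyme that turns cholesterol into pregnenolone, the step that commits it to steroid synthesis. It had 95 counts in LNCAP, with 0 in PC3 and 0 in DU145, a level of 6.08 CPM in LNCAP. A count of 0 was taken to allow up to 3 counts, or 0.196 CPM in PC3 and 0.191 CPM in DU145. The bounds below take the LNCAP count as exact and are not 95% limits. By this bound CYP11A1 was at least 30.9-fold lower in PC3 and at least 31.7-fold lower in DU145 than in LNCAP. HSD3B1 encodes the dehydrogenase and isomerase that oxidises the adrenal precursor dehydroepiandrosterone to androstenedione. It had 27 counts in LNCAP, but 0 in PC3 and 0 in DU145, with 1.73 CPM in LNCAP (95% interval 1.14 to 2.51). The same bound put HSD3B1 at least 8.80-fold lower in PC3 and at least 9.02-fold lower in DU145. No ratio between PC3 and DU145 can be given for either gene. In RNA from bulk cultures, fewer cells with a transcript and less of it per cell cannot be told apart. HSD3B1 lies on chromosome 1 (119507198 to 119515054, plus strand, GRCh38).

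CYP11A1 lies on chromosome 15 (74337759 to 74367740, minus strand, GRCh38). Its upstream region is shown because it was the only one among the 10 genes to hold the letters TCAAGGNCA, the motif of the gland factor NR5A1 and its relatives. The 250 bases before the RefSeq start (GRCh38.p14, chr15:74367647-74367896, minus strand, 5′ to 3′) have the match in capitals, in reverse orientation as TGGCCTTGA, with its first base 47 bases before the start.
CYP11A1: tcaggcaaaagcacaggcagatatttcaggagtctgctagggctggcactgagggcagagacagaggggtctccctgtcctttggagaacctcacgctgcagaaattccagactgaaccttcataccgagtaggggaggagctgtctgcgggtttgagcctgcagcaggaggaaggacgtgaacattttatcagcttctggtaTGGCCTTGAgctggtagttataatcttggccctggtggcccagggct
On either strand, 1.02% of 34943 RefSeq upstream regions of this length held the motif. The match describes the reference sequence and is no measure of binding. The deposited model of CYP11A1 starts 94 bases before the RefSeq start, inside this region. In the annotation, CYP11A1 overlaps PPIAP46 and AC090826.1 on the opposite strand, which had 6 and 0 counts in LNCAP and 0 in the other libraries. Of all 100-base windows of CYP11A1 transcripts, 18.4% were also found in transcripts of another gene, mostly in AC090826.1. The strand setting of the counting is not given in the sources used here, so reads of CYP11A1 and of its antisense partners cannot be told apart.

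STS encodes steroid sulfatase, which removes the sulfate from dehydroepiandrosterone sulfate, the abundant circulating store of precursor. It had 450 counts in LNCAP, against 211 in PC3 and 214 in DU145, or 28.8, 13.8 and 13.7 CPM. PC3 and DU145 lay close together and both were below LNCAP. STS was 2.08-fold lower in PC3 (1.77 to 2.47) and 2.11-fold lower in DU145 (1.79 to 2.49) than in LNCAP, less than the 4-fold size required. PC3 and DU145 could not be ordered for STS, with a ratio of 1.01 (0.832 to 1.23). The gene lies on chromosome X (7219456 to 7354810, plus strand).

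HSD17B4 and HSD17B11 encode 17beta-hydroxysteroid dehydrogenases that work mainly in the oxidising direction, away from active steroids. HSD17B4 encodes the peroxisomal multifunctional enzyme, which also takes part in fatty acid beta-oxidation. It had 4455 counts in LNCAP, with 1322 in PC3 and 1671 in DU145, or 285, 86.5 and 107 CPM. LNCAP was the highest and the other lines were close to each other. HSD17B4 was 3.29-fold lower in PC3 (3.10 to 3.50) and 2.67-fold lower in DU145 (2.52 to 2.83) than in LNCAP, and 1.23-fold lower in PC3 than in DU145 (1.15 to 1.33).

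HSD17B11, a lipid-droplet enzyme that oxidises androstanediol, was ordered differently. From the lowest to the highest library it had 157 counts in PC3, then 287 in LNCAP and 693 in DU145, or 10.3, 18.4 and 44.2 CPM. It was 1.79-fold lower in PC3 (1.47 to 2.18) and 2.41-fold higher in DU145 (2.097 to 2.78) than in LNCAP, and the 3 intervals of its level did not overlap. Between the castration-resistant lines HSD17B11 was 4.31-fold lower in PC3 (3.62 to 5.15), which met the rule for being apart. Of the counts of HSD17B4 and HSD17B11 together, HSD17B11 held 6.05% in LNCAP (5.39 to 6.77, exact 95% interval), 10.6% in PC3 (9.09 to 12.3) and 29.3% in DU145 (27.5 to 31.2). These shares are not corrected for length. The genes are on different chromosomes, HSD17B4 on 5 (119452443 to 119637199) and HSD17B11 on 4 (87336610 to 87391386).

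SRD5A1 and SRD5A3 encode steroid 5alpha-reductases. The type-1 enzyme of SRD5A1 turns testosterone and androstenedione into their 5alpha-reduced forms, while the product of SRD5A3 is best known for making dolichol for protein glycosylation. SRD5A2, the type-2 enzyme of normal prostate, had 0 counts in every library. SRD5A1 had 1311 counts in LNCAP, but 505 in PC3 and 1273 in DU145, or 83.8, 33.04 and 81.3 CPM. PC3 alone was low. SRD5A1 was 2.54-fold lower in PC3 than in LNCAP (2.29 to 2.82) and 2.46-fold lower than in DU145 (2.22 to 2.73). LNCAP and DU145 could not be ordered, with DU145 1.03-fold lower (0.954 to 1.12).

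SRD5A3 had 1403 counts in LNCAP, against 151 in PC3 and 243 in DU145, or 89.7, 9.88 and 15.5 CPM. Both castration-resistant lines were low. SRD5A3 was 9.08-fold lower in PC3 (7.67 to 10.8) and 5.78-fold lower in DU145 (5.04 to 6.66) than in LNCAP, apart in both cases, and 1.57-fold lower in PC3 than in DU145 (1.28 to 1.94). SRD5A1 accordingly held 48.3% of the counts of this pair of genes in LNCAP (46.4 to 50.2). It held 77.0% in PC3 (73.6 to 80.2) and 84.0% in DU145 (82.0 to 85.8), and these shares are not corrected for length. SRD5A3 lies on chromosome 4 (55346109 to 55373096, plus strand), where SRD5A3-AS1 overlaps it on the opposite strand with 99 counts in LNCAP, with 6 in PC3 and 5 in DU145. SRD5A1 lies on chromosome 5 (6633343 to 6674386, plus strand), 52 bases from NSUN2 on the opposite strand. NSUN2, an RNA methyltransferase gene, had 3045 counts in LNCAP, but 3992 in PC3 and 4672 in DU145, with LNCAP the lowest.

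The aldo-keto reductase genes AKR1C1, AKR1C2 and AKR1C3 lie side by side on chromosome 10 and did not share an order across the lines. AKR1C3 encodes the enzyme that reduces androstenedione to testosterone. AKR1C2 encodes the main reductase that inactivates dihydrotestosterone, and AKR1C1 a close relative that also reduces progesterone. The deposited spans are 4963253 to 4983283 (plus strand) for AKR1C1, 4987400 to 5018031 (minus strand) for AKR1C2 and 5035354 to 5107686 (plus strand) for AKR1C3. Their upstream regions are shown because the 3 genes are near copies of each other and yet differed in level. Each is the 250 bases before a RefSeq start (GRCh38.p14, 5′ to 3′), with the CCAAT box in capitals, in reverse orientation as ATTGG. The regions are chr10:4963165-4963414 for AKR1C1, chr10:5003858-5004107 for AKR1C2, and chr10:5048531-5048780 and chr10:5094164-5094413 for the starts of AKR1C3 at 5048781 and 5094414.
AKR1C1: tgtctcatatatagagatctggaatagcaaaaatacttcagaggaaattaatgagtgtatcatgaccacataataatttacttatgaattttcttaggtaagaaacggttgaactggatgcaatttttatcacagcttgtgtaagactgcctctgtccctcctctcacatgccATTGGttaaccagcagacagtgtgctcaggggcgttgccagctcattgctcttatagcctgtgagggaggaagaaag
AKR1C2: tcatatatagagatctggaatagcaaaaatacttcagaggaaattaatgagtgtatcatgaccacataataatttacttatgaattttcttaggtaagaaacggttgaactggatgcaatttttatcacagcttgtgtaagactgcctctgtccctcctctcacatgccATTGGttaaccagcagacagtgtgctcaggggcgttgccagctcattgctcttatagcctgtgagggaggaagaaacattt
AKR1C3, start 5048781: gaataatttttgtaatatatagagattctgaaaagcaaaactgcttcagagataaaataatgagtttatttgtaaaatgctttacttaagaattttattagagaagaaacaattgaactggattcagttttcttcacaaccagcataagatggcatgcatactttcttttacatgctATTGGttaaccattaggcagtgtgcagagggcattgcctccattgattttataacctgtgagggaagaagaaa
AKR1C3, start 5094414: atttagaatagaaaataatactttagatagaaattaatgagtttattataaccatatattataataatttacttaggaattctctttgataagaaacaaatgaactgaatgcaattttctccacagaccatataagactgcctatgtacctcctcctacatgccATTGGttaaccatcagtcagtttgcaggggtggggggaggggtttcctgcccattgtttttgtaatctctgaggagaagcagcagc
The AKR1C1 and AKR1C2 regions were identical at 245 of 254 aligned positions (96.5%). The AKR1C3 regions matched that of AKR1C1 at 71.4% and 69.2% of aligned positions and that of AKR1C2 at 69.6% and 69.8%. The CCAAT box, in all 4 regions between 73 and 86 bases before the start, occurred in 32.0% of all upstream regions of this length. The deposited model of AKR1C1 starts 162 bases before the RefSeq start, inside the region shown. The start of the deposited AKR1C2 model lies 14174 bases from the RefSeq start, and that of AKR1C3 lies 13427 and 59060 bases away, so which start was used in these lines is not known from gene counts.

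Over the 16 RefSeq upstream regions of the 10 genes, further motifs were searched on both strands, and no matches overlapped. The CCAAT box was found in 6 of the 16 regions, from 5 genes, the 3 AKR1C genes, HSD17B11 and STS, beside 32.0% of all regions. The core of the antioxidant response element, TGACNNNGC, occurred in 2 of the 16 regions, of SRD5A3 and STS, and in 10.9% of all regions. The TATA box, TATAAA, occurred in 2 of the 16 regions, of AKR1C3 and STS, and in 10.8% of all regions. No match says only that these letters are not in the window.

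AKR1C1 had 507 counts in LNCAP, against 35 in PC3 and 81 in DU145, or 32.4, 2.29 and 5.17 CPM. AKR1C2 had 236 counts in LNCAP, with 5 in PC3 and 59 in DU145, or 15.1, 0.327 and 3.77 CPM. Both were highest in LNCAP and lowest in PC3. AKR1C1 was 14.2-fold lower in PC3 (10.0 to 20.6) and 6.27-fold lower in DU145 (4.95 to 8.03) than in LNCAP. AKR1C2 was 46.1-fold lower in PC3 (19.5 to 143) and 4.01-fold lower in DU145 (3.001 to 5.43). The last difference fell just short of the rule, with a log2 ratio of -1.99, and met it at -2.04 when library totals alone were used for scaling. Between the castration-resistant lines AKR1C2 was apart, 11.5-fold lower in PC3 (4.66 to 36.8), a value resting on 5 counts, and AKR1C1 was 2.26-fold lower in PC3 (1.501 to 3.46).

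AKR1C3 ran the other way. It had 29 counts in LNCAP, but 87 in PC3 and 277 in DU145, or 1.85, 5.69 and 17.7 CPM, and was the only gene of the 10 that was lowest in LNCAP. AKR1C3 was 3.07-fold higher in PC3 (1.996 to 4.85) and 9.53-fold higher in DU145 (6.49 to 14.5) than in LNCAP, the second of these apart. It was 3.11-fold lower in PC3 than in DU145 (2.43 to 4.00).

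Shares of the summed counts of the 3 AKR1C genes, which are not corrected for length, were compared across lines. AKR1C1 held 65.7% in LNCAP (62.2 to 69.0), 27.6% in PC3 (20.01 to 36.2) and 19.4% in DU145 (15.7 to 23.6). AKR1C3 held 3.76% in LNCAP (2.53 to 5.35), 68.5% in PC3 (59.7 to 76.5) and 66.4% in DU145 (61.7 to 70.9). The share of AKR1C3 was thus low in LNCAP, and its intervals in PC3 and DU145 overlapped. Summed over the 3 genes there were 772 counts in LNCAP, against 127 in PC3 and 417 in DU145, so the sum was 5.94-fold lower in PC3 (4.92 to 7.23) and 1.85-fold lower in DU145 (1.64 to 2.09) than in LNCAP. AKR1C4, the liver member of the cluster, had 0 counts in every library.

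Near-identical sequence limits how far AKR1C1 and AKR1C2 can be separated. Their coding sequences, of 969 bases each, were 98.0% identical, against 91.4% for AKR1C1 with AKR1C3 and 91.0% for AKR1C2 with AKR1C3. Of all 50-base windows of AKR1C2 transcripts, 38.9% were also found in another gene, nearly all in AKR1C1, and of those of AKR1C1, 28.6%. For AKR1C3 the share was 4.53%. How reads with several matches were counted is not given in the sources used here, so the split between AKR1C1 and AKR1C2 is uncertain, while few AKR1C3 windows are shared.

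**Figure D2:**
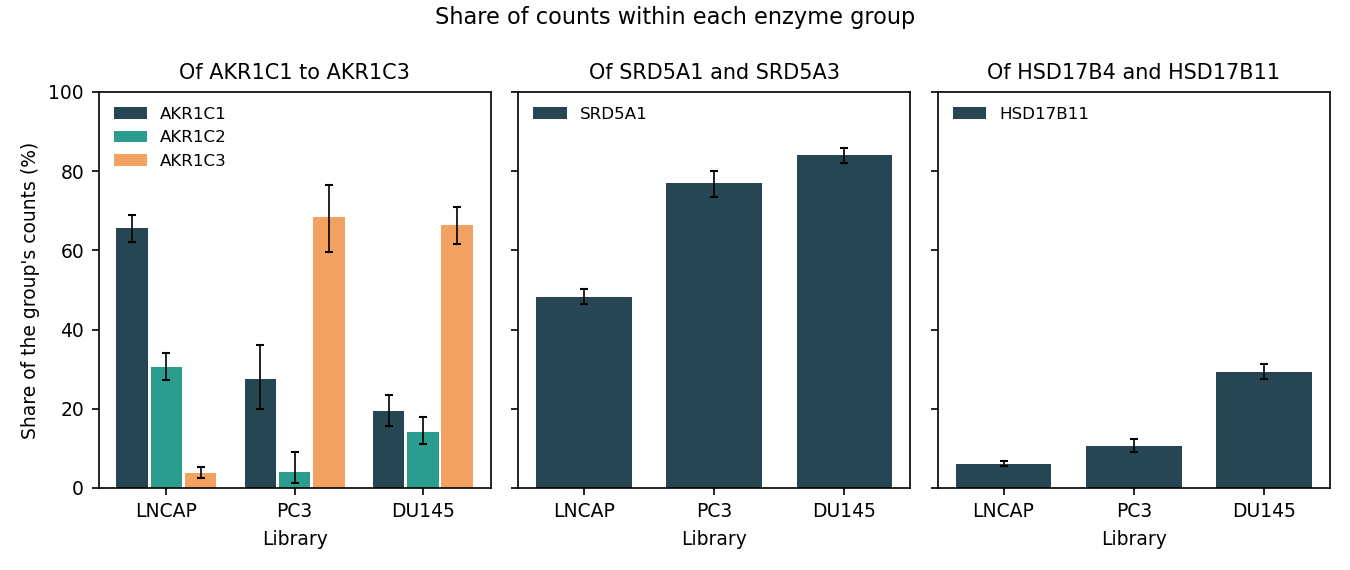
Share of counts (%), not corrected for length, held by each gene within its enzyme group in LNCAP, PC3 and DU145. There is 1 library each, with exact 95% binomial intervals as bars. AKR1C3 holds 3.76% of the AKR1C counts in LNCAP and 68.5% and 66.4% in PC3 and DU145, SRD5A1 holds 48.3%, 77.0% and 84.0% of its pair, and HSD17B11 holds 6.05%, 10.6% and 29.3% of its pair.

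Levels of different genes were compared per length, with the deposited FPKM. HSD17B4 had the highest FPKM of the 10 genes in LNCAP, at 26.2, ahead of SRD5A3 at 19.9 and SRD5A1 at 10.7. It was also first in PC3, with an FPKM of 8.05, ahead of SRD5A1 at 4.25 and HSD17B11 at 4.19. In DU145 HSD17B11 was first, with an FPKM of 18.1, ahead of SRD5A1 at 10.5 and HSD17B4 at 9.99. SRD5A3 was thus the second gene by FPKM in LNCAP and the fifth in DU145, at 3.50. The order depends on the length used, in LNCAP only for AKR1C1 and STS, and for more of the genes in PC3 and in DU145. The deposited length of HSD17B4 is 10664 bases, which covers all of its exons, and its longest annotated coding transcript has 2881. As normalised CPM per kilobase of each gene's longest coding transcript, HSD17B4 came first in DU145 with 37.0 and HSD17B11 followed with 23.5. On this measure HSD17B11 in PC3, at 5.45, was above SRD5A1, at 4.63. AKR1C3, the last of the 10 genes by FPKM in LNCAP at 0.402, had an FPKM of 1.25 in PC3 and 3.90 in DU145. AKR1C1 was above AKR1C3 in LNCAP, with an FPKM of 3.63, and below it in PC3 at 0.259 and in DU145 at 0.589.

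Taking the genes as a set, 5 of 10 were apart and lower in PC3 than in LNCAP, namely HSD3B1, CYP11A1, SRD5A3, AKR1C1 and AKR1C2, and 0 were apart and higher. Over all 18025 genes 13.3% were apart and lower and 13.0% apart and higher. In DU145 against LNCAP, 4 were apart and lower (HSD3B1, CYP11A1, SRD5A3 and AKR1C1) and 1 was apart and higher (AKR1C3), beside 12.1% and 13.7% of all genes. HSD3B1 and CYP11A1 could pass the filter only by differing. Among the other 8 genes, which reached 1 CPM in at least 2 libraries, 3 were apart in each of these comparisons, and their median log2 ratio was -1.53 in PC3 and -1.25 in DU145. The median of all 18025 genes, which include those at 1 CPM in 1 library only, was -0.0057 in PC3 and -0.0026 in DU145. No share or median was computed for all genes at 1 CPM in at least 2 libraries, so the 8 genes have no like background. Both comparisons use the same LNCAP library, so they are not independent of each other.

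Between PC3 and DU145, 2 genes were apart and lower in PC3, HSD17B11 and AKR1C2, beside 10.6% of all genes, and 0 were apart and higher, beside 8.54%. Of the 8 genes with counts in both lines, 7 had a lower level in PC3, and STS was the exception at a ratio of 1.01. The share of all genes with a lower level in PC3 was not computed. The median log2 ratio of the 8 genes was -1.23. It was 0.019 for all genes, which again include those at 1 CPM in 1 library only and so are no like background.

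**Figure D3:**
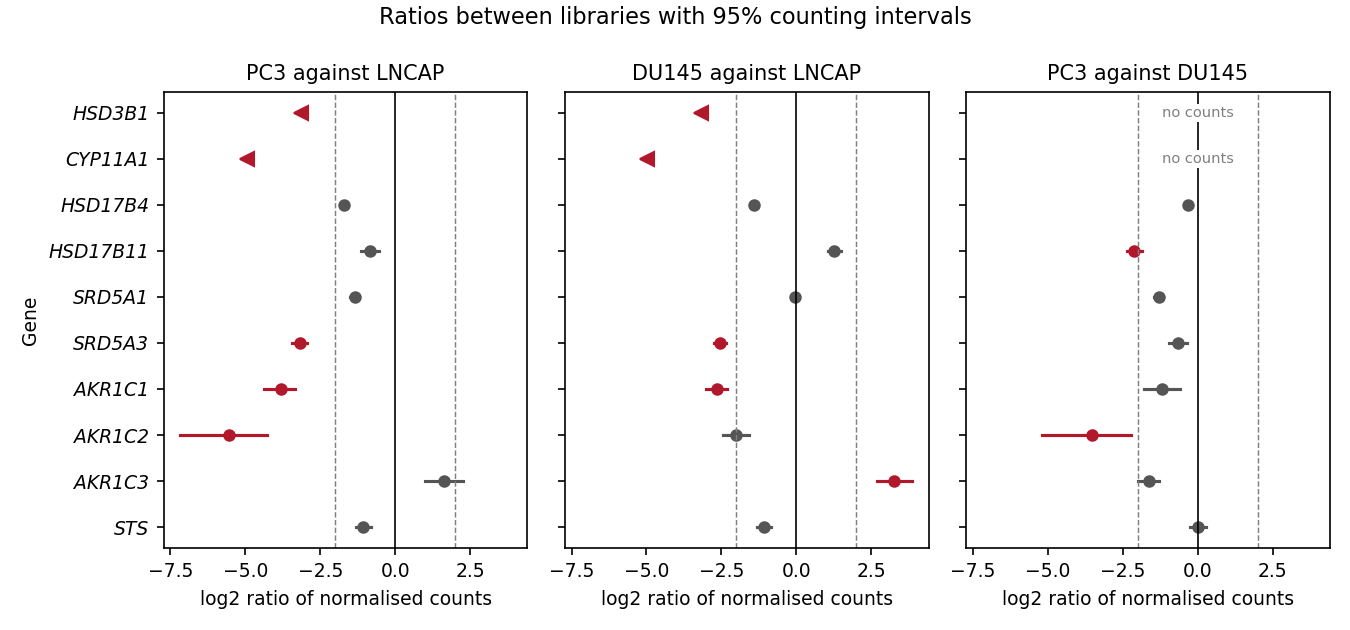
log2 ratio of normalised counts (x axis) for each of the 10 enzyme genes in PC3 against LNCAP, DU145 against LNCAP and PC3 against DU145, with 95% counting intervals as lines. Red marks genes called apart, left-pointing triangles mark bounds against 0 counts, and dashed lines mark a 4-fold difference. AKR1C3 lies to the right of 0 in both panels with LNCAP, and HSD17B11 on opposite sides.

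The castration-resistant lines were also taken as a class of 2 libraries against LNCAP, the comparison named in the series design. This fit has 1 residual degree of freedom and uses the distance of PC3 from DU145 as its measure of spread. None of the 10 genes was called by edgeR's quasi-likelihood test with Benjamini-Hochberg adjustment, and neither was any other gene (0% of 18025), although 1745 genes had an unadjusted p under 0.05. The smallest adjusted p among the 10 was 0.363, for SRD5A3 (log2 ratio -2.82, lower in 2 of 2 lines). CYP11A1, with 0 counts in both lines, followed at an adjusted p of 0.408 in edgeR, and AKR1C1 at 0.444 (log2 ratio -3.12, lower in 2 of 2 lines). HSD17B4 had 0.495 in edgeR (log2 ratio -1.56, lower in 2 of 2 lines), and these 4 genes were the ones with an unadjusted p under 0.05. AKR1C3, higher in 2 of 2 lines by 2.65 on the log2 scale, had an adjusted p of 0.615 in edgeR. limma-voom also called 0 genes, with 1335 at an unadjusted p under 0.05. DESeq2 called 8.78% of the 14879 genes to which it gave an adjusted p, and SRD5A3 alone of the 10, at an adjusted p of 0.013. It gave HSD3B1 no adjusted p.

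The steps around the 10 enzymes were described with 62 further genes, of which 41 reached 1 CPM. Of these 41, 5 were apart and higher and 7 apart and lower in PC3 than in LNCAP, 5 higher and 6 lower in DU145 than in LNCAP, and 3 higher and 5 lower in PC3 than in DU145. Over all genes tested, 13.0% were apart and higher and 13.3% apart and lower in the first of these comparisons, 13.7% and 12.1% in the second, and 8.54% and 10.6% in the last. Genes apart in either direction made up 26.3% and 25.8% of all genes in the comparisons with LNCAP, so the counts among the 41 genes were near the background. The median log2 ratios of the 41 genes were -0.27, 0.047 and -0.12.

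Of the 10 other genes for the first steps, 6 had 3 counts or fewer in every library. CYP17A1, whose enzyme makes dehydroepiandrosterone from pregnenolone, had 2 counts in LNCAP, with 1 in PC3 and 0 in DU145, and HSD3B2, the gland form of HSD3B1, had 0, 2 and 0. STAR, the carrier of cholesterol to CYP11A1 in glands, had 6, 0 and 4 counts. The counts of CYP11A1 in LNCAP thus stood beside next to none for CYP17A1, and beside 27 for HSD3B1. HSD3B7, a bile acid enzyme, had 201 counts in LNCAP, but 62 in PC3 and 260 in DU145, and was apart between PC3 and DU145 (4.09-fold lower in PC3, 3.09 to 5.49).

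Among 10 other 17beta-hydroxysteroid dehydrogenase genes, 8 reached 1 CPM, and in PC3 against LNCAP 2 were apart and higher and 2 apart and lower, beside 13.0% and 13.3% of all genes. HSD17B3, whose enzyme makes testosterone in the testis, had 0 counts in every library. HSD17B2, which encodes an oxidising enzyme that inactivates testosterone, had 6 counts in LNCAP, against 112 in PC3 and 3 in DU145. PC3 was 19.1-fold higher than LNCAP (8.50 to 53.2). HSD17B8, with a role in mitochondrial fatty acid synthesis, had 218 counts in LNCAP, with 41 in PC3 and 9 in DU145. It was 5.20-fold lower in PC3 (3.71 to 7.44) and 24.3-fold lower in DU145 (12.55 to 53.8) than in LNCAP. Against LNCAP, HSD17B8 was the only gene of this list apart in DU145. Of all genes, 13.7% were apart and higher in DU145 and 12.1% apart and lower.

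Of 11 other reductases and 3alpha-oxidases, 6 reached 1 CPM, and the same counts of 0 higher and 2 lower were found for PC3 and for DU145 against LNCAP, where 13.3% and 12.1% of all genes were lower. HSD11B2, whose enzyme inactivates cortisol, had 1855 counts in LNCAP, but 34 in PC3 and 32 in DU145, 53.3-fold lower in PC3 (38.0 to 77.2) and 58.1-fold lower in DU145 (41.0 to 85.2). RDH16, a microsomal retinol dehydrogenase gene that also oxidises 3alpha-hydroxysteroids, had 36, 2 and 6 counts. It was 17.6-fold lower in PC3 (4.53 to 151) and 6.01-fold lower in DU145 (2.51 to 17.5).

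Of 9 genes for steroid sulfation and for activating the sulfatase, 7 reached 1 CPM, and 1 was apart and higher and 2 apart and lower in each castration-resistant line against LNCAP. Of all genes, 13.0% were higher and 13.3% lower in PC3, and 13.7% higher and 12.1% lower in DU145. PAPSS2 makes the sulfate donor for the reaction that STS undoes. It had 25 counts in LNCAP, against 969 in PC3 and 713 in DU145, 39.7-fold higher in PC3 (26.7 to 61.6) and 28.5-fold higher in DU145 (19.1 to 44.3). SULT2B1, a sulfotransferase for cholesterol and related sterols, had 178, 5 and 12 counts, 34.8-fold lower in PC3 (14.6 to 108) and 14.9-fold lower in DU145 (8.30 to 29.3). SULT2A1, which sulfates dehydroepiandrosterone in the adrenal gland and liver, had 0 counts in every library. PAPSS2 and SULT2B1 thus differed from LNCAP in opposite directions, and SUMF1 and SUMF2, of which SUMF1 activates STS, were not apart. PAPSS1, another gene for making the sulfate donor, was not apart either. The LNCAP level of PAPSS1 was 61.3 CPM, beside 1.60 CPM for PAPSS2. PAPSS1 was 1.21-fold lower in PC3 (1.10 to 1.33) and 1.11-fold lower in DU145 (1.01 to 1.22).

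Of 8 genes for electron donors and cofactors, 7 reached 1 CPM. CYB5A, cytochrome b5, had 3108 counts in LNCAP, with 394 in PC3 and 423 in DU145, 7.71-fold lower in PC3 (6.94 to 8.58) and 7.36-fold lower in DU145 (6.65 to 8.17). FDX1 and FDXR, which pass electrons to CYP11A1, were not apart in any pair.

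Of 7 uptake genes, 3 reached 1 CPM. SLCO1B3, a carrier of steroid conjugates, had 0 counts in LNCAP, but 128 in PC3 and 87 in DU145, a level at least 43.7-fold higher in PC3 and, in DU145, at least 28.9-fold higher than in LNCAP. SLCO4A1, another carrier of the family, had 1081, 5811 and 1401 counts and was 5.50-fold higher in PC3 than in LNCAP (5.15 to 5.87). All 7 genes for cholesterol supply reached 1 CPM, and against LNCAP 0 were apart in PC3 and 2 apart and higher in DU145. Of all genes, 26.3% were apart in PC3 against LNCAP and 13.7% apart and higher in DU145 against LNCAP. NPC2, a carrier of cholesterol out of lysosomes, had 477, 567 and 2480 counts and was 5.19-fold higher in DU145 (4.70 to 5.74). Between PC3 and DU145, 2 genes of this list were apart and lower in PC3, beside 10.6% of all genes.

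**Figure D4:**
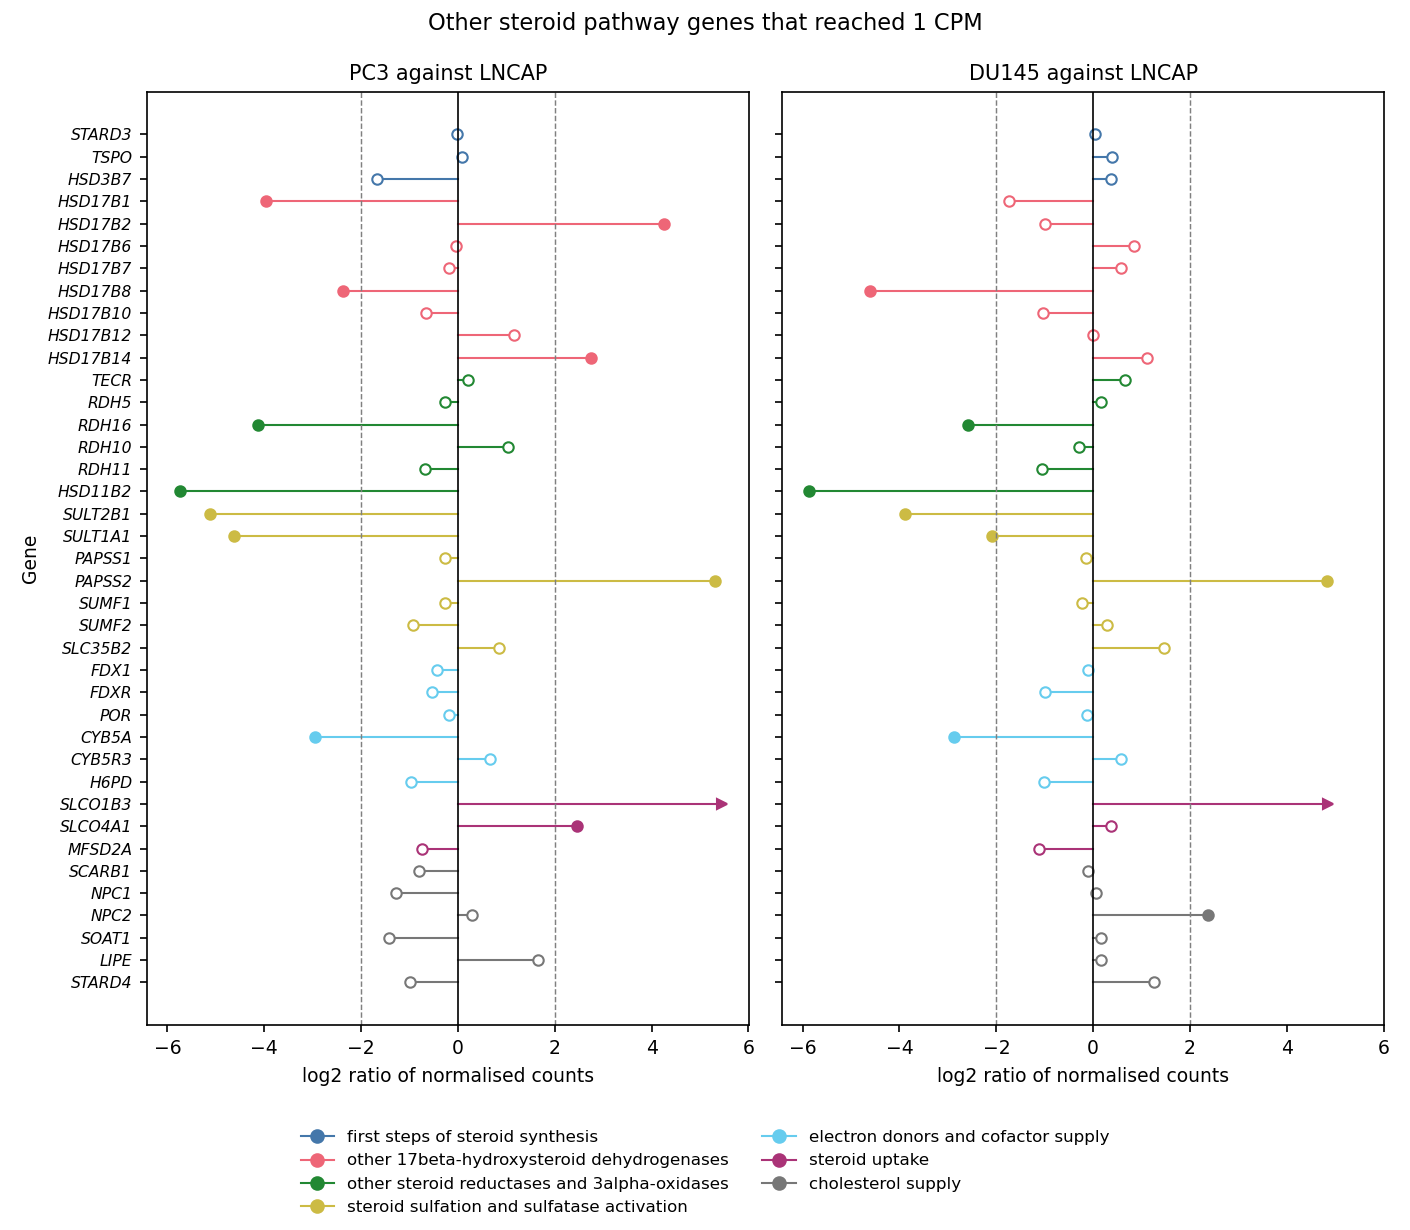
log2 ratio of normalised counts (x axis) in PC3 and in DU145 against LNCAP for 39 of the 41 further pathway genes that reached 1 CPM, coloured by list, 1 library per line. Filled points are called apart, right-pointing triangles are bounds against 0 counts in LNCAP, and dashed lines mark a 4-fold difference. HSD11B2 and CYB5A lie to the left and PAPSS2 and SLCO1B3 to the right in both panels.

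For each of the 7 genes apart in any pair, the protein-coding genes nearest in level were taken by the Euclidean distance of log2 normalised CPM, over 3 libraries only. SRD5A3 was nearest to ABHD11, a mitochondrial hydrolase gene with 1256 counts in LNCAP, against 145 in PC3 and 245 in DU145 (distance 0.170), followed by TMEM141 and SELENOM. AKR1C1 was nearest to IL32, a cytokine gene with 558, 28 and 73 counts (distance 0.376), followed by ZNF43 and AOC2. AKR1C2 was nearest to OVOL2, a transcription factor gene of epithelia with 203, 4 and 50 counts (distance 0.432), followed by MARVELD3 and PELI2. AKR1C3 was nearest to B3GNT9, with 24, 98 and 241 counts (distance 0.376), then to SALL4 and KSR1, and HSD17B11 to C9orf40, with 253, 160 and 686 counts (distance 0.184), then to SRXN1 and LRRC61. CYP11A1 was nearest to NEXMIF (96 counts in LNCAP and 0 in the others), OVOL1 and PAX1. For HSD3B1, 4 genes had its very counts of 27, 0 and 0, among them HEPH, BST2 and IGSF1.

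Neighbouring genes did not all share the levels of the 10 genes. HAO2, the nearest protein-coding gene at 1 CPM on the lower side of HSD3B1, 113068 bases away, had 22 counts in LNCAP, with 0 in PC3 and 0 in DU145, the same order as HSD3B1. TNFAIP8, 52755 bases from HSD17B4, had 589, 146 and 187 counts, the same order as HSD17B4. SEMA7A, 41549 bases from CYP11A1, went against CYP11A1, with 41, 835 and 469 counts. NUDT9, 31196 bases from HSD17B11, had 764, 232 and 299 counts and did not share the high level of HSD17B11 in DU145. AKR1E2, 115191 bases from AKR1C1, had 7, 9 and 232 counts and was apart in DU145 against LNCAP, where AKR1C1 was lower.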

How the data were processed

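RNA of 3 prostate cancer lines was sequenced, 1 library each, grouped by the cell line label. The authors deposited raw read counts per gene as whole numbers. They also deposited FPKM values, and each FPKM is the count over the listed length of the gene and over a library constant (for LNCAP, PC3 and DU145, 1.034, 1.005 and 0.988 of the total), so it rescales the same counts. Per the submitters' processing notes, the tools included TopHat2 2.0.9 and Bowtie2 2.0.6, and Cuffdiff and Cufflinks, both 2.1.1, with no role stated. Not given in the sources used here are the counting program, its strand setting, the read length and the build. Of 58735 genes, 58724 had the coordinates of GENCODE 29, so coordinates are on GRCh38.

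Library totals were 15393103 counts in LNCAP, against 15319045 in PC3 and 15878546 in DU145, and 3 counts correspond to 0.191 to 0.196 CPM. TMM scaling (edgeR 4.0.16, R 4.3.3) gave factors of 1.016, 0.998 and 0.987. Ratios carry exact conditional-binomial (Clopper-Pearson) 95% intervals, shares exact binomial ones, and levels exact Poisson ones (Python 3.11.15, scipy 1.17.1). Against 0 counts a fold is a bound at 3 counts in that library, with the other count taken as exact, and is no 95% limit. No fold is given where both libraries have 3 counts or fewer. The class was tested with edgeR's quasi-likelihood test at an adjusted p of 0.05, with DESeq2 1.42.0 and limma-voom (limma 3.58.1) as alternatives. Both scripts were tested on simulated data. Other scalings, filters, added counts, sizes, FPKM and a summed AKR1C feature were also tried. Upstream sequences came from RefSeq (GRCh38.p14), were matched by symbol for all 10 genes, and were searched on both strands for short motifs.

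Named genes were the 10 enzymes, the 2 genes of each pathway list with the largest ratio among those apart, and the 3 genes nearest in level to each enzyme gene apart. Other genes named were picked with their values in view. Some items under these rules are not reported here. The enzymes, lists and markers were chosen with earlier results of these data known. Nothing says that the libraries came from separate cultures.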

Additional observations from a re-analysis of the deposited data

Results flagged for a closer look

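HSD17B11 differed from LNCAP in opposite directions in the castration-resistant lines, with a log2 ratio of -0.84 in PC3 and 1.27 in DU145. HSD3B7 did so too, at -1.66 in PC3 and 0.37 in DU145. With 1 library per line the difference between the ratios was not tested, and both ratios of each gene share the LNCAP library.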

How the results depend on the processing

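The number of the 10 genes apart depended on the size required and on the value used, and moved by 1 with the filter and with some scalings. In PC3 against LNCAP it was 5 (26.3% of all genes). It became 9 with a 2-fold size (46.2%), 4 with a 10-fold size (16.5%) and 1 with deposited FPKM plus 1 (9.18%). It was 4 of 9 with the 5 CPM filter (22.0%), which removed HSD3B1, and 4 of 8 features with the AKR1C genes summed (26.3%). In DU145 against LNCAP it was 5 (25.8% of all genes). It became 9 with a 2-fold size (46.0%), 2 with a 10-fold size (15.9%) and 1 with FPKM plus 1 (8.61%). It was 3 of 8 features with the AKR1C genes summed (25.8%) and 4 of 9 with the 5 CPM filter (21.1%). With library totals alone (26.0%) or without mitochondrial genes (26.1%) it was 6. In PC3 against DU145 it was 2 (19.1% of all genes), and became 5 with a 2-fold size (37.8%), 1 with a 10-fold size (10.9%), 0 with FPKM plus 1 (5.53%) and 1 with the AKR1C genes summed (19.1%). The share of all genes moved with these counts under other sizes, FPKM and the filter, and little or not at all with other scalings or the summed AKR1C genes. Adding 1 shrinks the ratios of genes whose FPKM is below it. DESeq2 called 1 of the 10 genes in the class comparison, against 0 in edgeR. Of 295 single ratios under alternatives, 267 kept their call, 15 lost it, 13 gained it and 0 reversed. AKR1C2 in DU145 against LNCAP became apart with library totals alone (-2.04) or without mitochondrial genes (-2.07). Chosen after seeing the data, ranking by transcript length in place of the listed length moved 2 of the 10 genes in LNCAP, 5 in PC3 and 5 in DU145. Leaving out a library of the class comparison leaves no residual degree of freedom and gives the pairwise ratios. No paired analysis was possible because each line has 1 library and the labels give no replicate numbers. At 0 counts, HSD3B1 and CYP11A1 in PC3 and DU145 allow bounds only, and AKR1C2 in PC3 rests on 5 counts.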
